A study of Mus musculus with 8 samples.

Results

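The genes described here encode proteins that neutrophils store for killing microbes. They are 4 genes of the primary granules, Elane, Mpo, Ctsg and Prtn3, and 6 genes that are switched on later, Ltf, Camp, Ngp, Mmp8, S100a8 and S100a9. Each was read from the probe sets annotated to its symbol alone, with the probe set of the highest mean over 8 arrays standing for the gene. Every one of the 10 had exactly 1 such probe set and passed the filter on dim probe sets, so all 10 are among the 11189 genes tested. Values are probe set signals, the array's linear measure of transcript level, and differences are given on the scale log2(signal + 16). The study profiled spleen cells (splenocytes) of male C57/BL6 mice with 1 round of amplification on Affymetrix arrays, 1 array for each of 8 mice. The mice carried an HMGA1a transgene (TG) or were wild-type (WT) littermates, and were sampled at 12 months, when the design text calls lymphoid tumours well established in TG mice, or at 2 months, before they appear. The 4 groups were TG at 12 months, WT at 12 months, TG at 2 months and WT at 2 months, with 2 mice in each, labelled biologic replicates 1 and 2. The labels name neither the promoter that drives the transgene nor the founder line, and they name no sorting of the spleen cells.

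Neutrophils develop in the bone marrow, and in the mouse also in the red pulp of the spleen, through promyelocyte, myelocyte and metamyelocyte stages to the segmented cell. Promyelocytes make the primary (azurophil) granules, and the transcripts of their proteases and of myeloperoxidase are lost as the cell matures. Myelocytes and metamyelocytes then make the specific granules with lactoferrin and cathelicidin, and collagenase and the S100A8 and S100A9 proteins follow. Transcripts of the primary granule proteins, lactoferrin and cathelicidin are thus made mostly by immature neutrophils, and those of surface receptors such as CXCR2 by mature ones. In RNA from mixed cells, fewer cells of a type and less RNA per cell cannot be told apart.

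The DNA upstream of these genes is shown first. The motif letters were chosen after the sequences had been seen, so how they fall in the 2 classes is a description and was not tested. PU.1 and C/EBP proteins, MYB, RUNX1 and GFI1 direct neutrophil development. The 250 bases before the annotated start of each gene were taken from RefSeq for the mouse build GRCm38.p6, and all 10 genes had an entry. The DNA was searched on both strands for AGGAAG (the core bound by PU.1 and other ETS factors), CAACNG (MYB), TTNNGNAA (C/EBP) and TGTGGT (RUNX). Capitals mark matches to the first 3 motifs on either strand, in the 5′ to 3′ direction of the gene. The neighbours Prtn3 and Elane on chromosome 10 come first, as 2 serine protease genes that lie side by side. Prtn3 is at chr10:79879417-79879666 and Elane at chr10:79886062-79886311, both on the plus strand.

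Prtn3: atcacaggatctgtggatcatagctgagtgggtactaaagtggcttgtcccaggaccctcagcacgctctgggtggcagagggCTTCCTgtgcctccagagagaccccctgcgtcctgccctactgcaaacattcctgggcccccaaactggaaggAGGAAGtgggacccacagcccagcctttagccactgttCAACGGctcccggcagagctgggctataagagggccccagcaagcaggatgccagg
Elane: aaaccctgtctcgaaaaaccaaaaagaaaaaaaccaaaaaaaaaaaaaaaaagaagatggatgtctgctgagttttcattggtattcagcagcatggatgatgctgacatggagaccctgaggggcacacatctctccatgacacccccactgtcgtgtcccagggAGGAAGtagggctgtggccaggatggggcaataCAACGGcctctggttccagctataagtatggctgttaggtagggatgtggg
Both hold AGGAAG upstream of CAACGG, at positions -94 and -56 before the start of Prtn3 and at -84 and -51 before that of Elane. Of the later genes, Ltf (chr9:111019042-111019291, plus strand), S100a8 (chr3:90668821-90669070, plus strand) and its neighbour S100a9 (chr3:90695722-90695971, minus strand) are shown. All 3 hold a match to the C/EBP letters TTNNGNAA, and no primary gene has one in this window.

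Ltf: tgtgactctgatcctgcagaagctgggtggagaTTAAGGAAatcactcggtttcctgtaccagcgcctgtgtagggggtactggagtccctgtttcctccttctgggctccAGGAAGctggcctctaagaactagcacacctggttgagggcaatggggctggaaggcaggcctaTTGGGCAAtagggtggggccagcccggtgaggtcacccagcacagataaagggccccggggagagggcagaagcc
S100a8: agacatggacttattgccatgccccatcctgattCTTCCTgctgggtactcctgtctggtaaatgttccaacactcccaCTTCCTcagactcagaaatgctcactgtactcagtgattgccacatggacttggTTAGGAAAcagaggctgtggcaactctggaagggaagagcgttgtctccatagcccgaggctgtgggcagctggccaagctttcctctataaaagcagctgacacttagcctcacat
S100a9: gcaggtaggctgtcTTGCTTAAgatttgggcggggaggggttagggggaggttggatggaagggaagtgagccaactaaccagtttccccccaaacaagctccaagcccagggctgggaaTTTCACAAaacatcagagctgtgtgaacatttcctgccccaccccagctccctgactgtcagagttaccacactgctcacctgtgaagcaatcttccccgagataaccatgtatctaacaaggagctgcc
The C/EBP pattern occurred in 5 of the 6 later genes (Ltf, Ngp, Mmp8, S100a8 and S100a9) and in none of the 4 primary genes, against 36.8% of 32851 mouse promoters of the same length. The MYB pattern occurred in 3 of the 4 primary genes (Elane, Ctsg and Prtn3) and in 1 later gene, Ngp, against 29.3% of promoters. The PU.1 core occurred in 8 of 10 genes, all but Ngp and S100a9, against 29.5% of promoters, and the RUNX pattern in 2 of 10, Ctsg and S100a9, against 14.0%. A match is a run of letters and not a bound site. The absence of a match holds for this window and these exact letters alone, and not for sites that depart from them. Ltf, Camp, Ngp and Mmp8 all lie on chromosome 9 but have other genes as neighbours, Mpo lies next to Lpo on chromosome 11, and Ctsg lies between Mcpt8 and Gzme on chromosome 14.

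The arrays differed in ways that bear on mixed cells. Summed signals of 11 B cell markers were 15020 to 29770 and of 11 T cell markers 4336 to 11150 over the 8 arrays, so both main lymphocyte types of the spleen were present on every array. TG replicate 1 at 12 months had the highest T cell sum (11150) and the lowest B cell sum (15020). WT replicate 1 at 2 months held exocrine pancreas transcripts at a summed signal of 15040, against 621 to 932 on the other 7 arrays. Signal ratios of 3′ to 5′ probe sets, used as a measure of RNA integrity, ordered the arrays differently for 2 control genes. The Gapdh ratio ran from 0.843 (TG replicate 1, 12 months) to 1.74 (WT replicate 2, 12 months), and the actin ratio from 1.10 (TG replicate 2, 12 months) to 1.48 (WT replicate 1, 12 months). The replicate number was itself a strong axis: 26.3% of all genes passed a limma test of replicate 2 against replicate 1. How far any of these moved the granule genes was not tested, except where values are given below.

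The primary granule genes differed widely between the 2 mice of a group. Elane, neutrophil elastase, had signals of 254.1 and 410.6 in TG replicates 1 and 2 at 12 months, against 260.7 and 78.0 in WT replicates 1 and 2. At 2 months Elane had 169.6 and 538.5 in TG replicates 1 and 2, against 144.7 and 254.5 in WT. The replicate 1 mice differed little at either age, and the gap between genotypes sat in replicate 2. Mpo, myeloperoxidase, which makes hypochlorous acid, had 410.4 and 556.7 in TG mice at 12 months, against 406.1 and 151.7 in WT. At 2 months Mpo had 257.1 and 780.9 in TG mice, against 198.1 and 412.1 in WT. Its TG values at 12 months both lay above the WT values, with the replicate 1 mice nearly level, and the 2-month groups overlapped.

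Ctsg, cathepsin G, had 60.6 and 135.1 in TG mice at 12 months, against 69.7 and 37.2 in WT. At 2 months Ctsg had 50.2 and 172.4 in TG mice, against 16.6 and 52.9 in WT. Its lower TG mouse at 2 months lay just under the higher WT mouse. Prtn3, proteinase 3, had 206.1 and 431.1 in TG mice at 12 months, against 232.4 and 132.6 in WT. At 2 months Prtn3 had 156.7 and 607.4 in TG mice, against 122.4 and 323.7 in WT. Ctsg was under the filter level of 45.3, the median of all probe sets, in WT replicate 2 at 12 months and WT replicate 1 at 2 months, so its differences depend on the pseudocount. For all 4 primary genes the highest array was TG replicate 2 at 2 months.

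**Figure D1:**
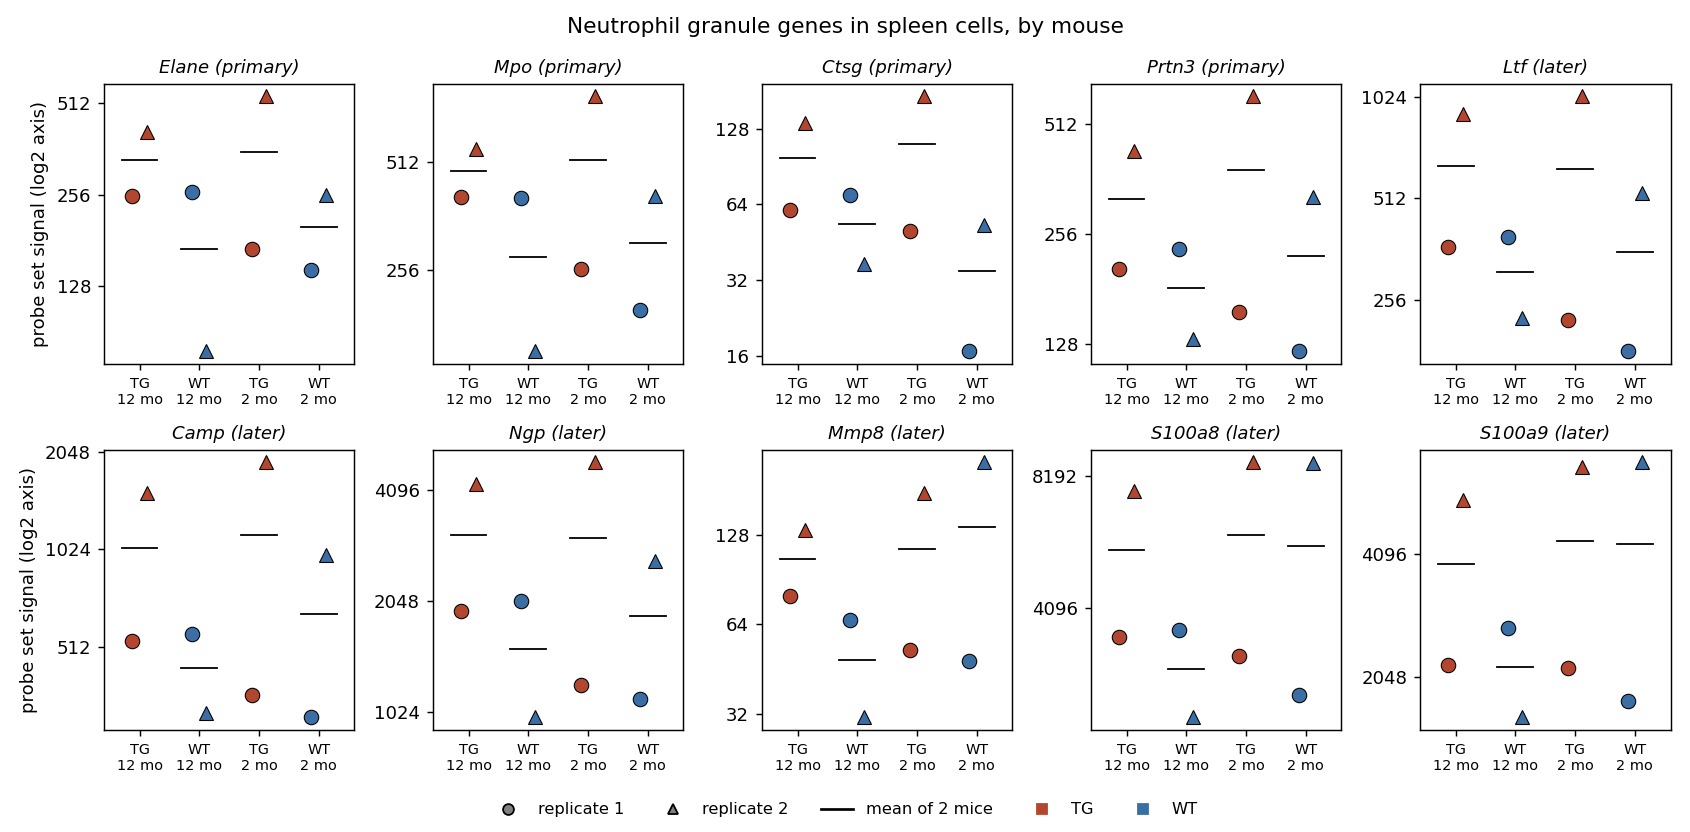
Probe set signal (log2 axis) of the 10 granule genes in each of 8 mice, by group, with circles for replicate 1, triangles for replicate 2 and a line at the mean of the 2 mice. The triangles lie above the circles in 3 groups and below them in WT at 12 months, for every gene.

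The later genes had the same layout over mice. Ltf, lactoferrin, the iron-binding protein of specific granules, had 368.3 and 908.0 in TG replicates 1 and 2 at 12 months, against 393.0 and 225.7 in WT. At 2 months Ltf had 223.9 and 1025 in TG mice, against 180.2 and 531.8 in WT. Camp, the cathelicidin precursor, had 533.6 and 1530 in TG mice at 12 months, against 561.8 and 320.3 in WT. In both genes the WT replicate 1 mouse at 12 months exceeded its TG counterpart, while within replicate 2 TG exceeded WT by 1.94 log2 units for Ltf and 2.20 for Camp. At 2 months Camp had 364.4 and 1897 in TG mice, against 310.8 and 985.2 in WT. Ngp, neutrophilic granule protein, had 1928 and 4247 in TG mice at 12 months, against 2052 and 990.1 in WT. At 2 months Ngp had 1212 and 4868 in TG mice, against 1108 and 2625 in WT. For Ltf, Camp and Ngp TG replicate 2 at 2 months was again the highest array.

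Mmp8, neutrophil collagenase, had 79.5 and 133.1 in TG mice at 12 months, against 66.2 and 31.2 in WT. At 2 months Mmp8 had 52.5 and 177 in TG mice, against 48.4 and 223.6 in WT. Its highest array was thus a WT mouse, and its WT replicate 2 value at 12 months was under the filter level of 45.3. S100a8 and S100a9 encode the subunits of calprotectin, a calcium-binding and metal-chelating protein that fills the cytosol of neutrophils and is not packed in granules. S100a8 had 3525 and 7598 in TG mice at 12 months, against 3653 and 2303 in WT, and 3189 and 8823 in TG mice at 2 months, against 2596 and 8791 in WT. Its probe set is of a kind that can bind more than 1 transcript. S100a9 had 2185 and 5568 in TG mice at 12 months, against 2699 and 1628 in WT, and 2149 and 6699 in TG mice at 2 months, against 1782 and 6887 in WT. At 2 months the TG replicate 2 mouse minus its WT counterpart was 0.01 log2 units for S100a8 and -0.04 for S100a9, so those mice were level.

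At 12 months, with tumours established in TG mice, all 10 granule genes were higher on average in TG than in WT spleen cells, and none passed the test. The log2 difference, TG minus WT, ran from 0.67 ± 0.59 (SE) for Ctsg to 1.07 ± 0.63 for Elane, a 1.59-fold to 2.10-fold difference on that scale. Mpo differed by 0.89 ± 0.60, Prtn3 by 0.71 ± 0.67, Ltf by 0.92 ± 0.76, Camp by 1.06 ± 0.84 and Ngp by 1.00 ± 0.72. Mmp8 differed by 0.94 ± 0.68, S100a8 by 0.83 ± 0.68 and S100a9 by 0.73 ± 0.76. With a pseudocount of 64 in place of 16 the difference was 0.44 for Ctsg and 0.59 for Mmp8, the 2 genes with signals under the filter level. The median was 0.80 over the 4 primary genes and 0.93 over the 6 later genes, against -0.03 over all genes tested, of which 45.2% were above 0. None of the 10 was called by limma (adjusted p = 0.732 to 0.886), and 0% of all genes were. At an unadjusted p under 0.05 there were 0 of the 10 and 865 of all genes (7.73%). TG values lay wholly above WT values in 2 of the 10, Mpo and Mmp8, against 14.3% of all genes, and wholly below in none, against 19.9%. With 2 mice a group, spread between mice is what these p-values reflect. With replicate 2 of either genotype set aside the medians were much smaller: without WT replicate 2 they were 0.31 (primary) and 0.52 (later), and without TG replicate 2 they were 0.45 and 0.30. Without TG replicate 1 the medians were 1.19 and 1.48, and without WT replicate 1 they were 1.32 and 1.32.

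Taken within each replicate number, the 12-month difference lay in replicate 2. Within replicate 2, TG exceeded WT in 10 of 10 genes, by 1.51 (Ctsg) to 2.20 (Camp) log2 units, with medians of 1.68 for the primary and 1.85 for the later genes. Within replicate 1, TG exceeded WT in 2 of 10 genes, Mpo by 0.02 and Mmp8 by 0.22, and the medians were -0.10 and -0.08. The labels do not say what the replicate number stands for. It was taken to pair the samples from correlations across genes, and the fit was repeated with the number as a block. No granule gene passed it (limma, adjusted p = 0.362 to 0.492), and 0.0447% of all genes did, 5 in number against 0 without the block.

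**Figure D2:**
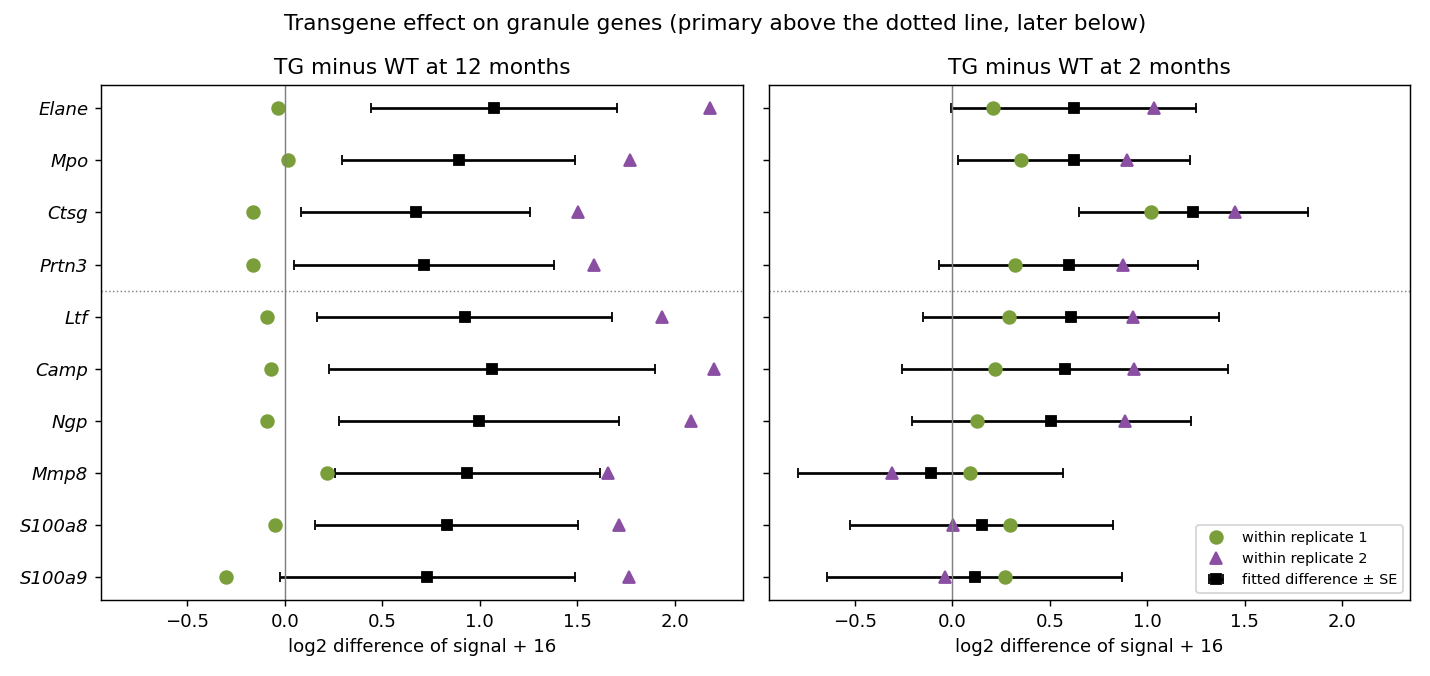
Log2 difference of signal + 16, TG minus WT, for each granule gene at 12 months (left panel) and 2 months (right panel), as the fitted value with its SE (black squares) and within replicate 1 (circles) and replicate 2 (triangles). At 12 months the circles lie near 0 (-0.30 to 0.22) and the triangles at 1.51 to 2.20.

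At 2 months, before tumours, the primary genes were again higher on average in TG mice and the later genes were split. The 4 primary genes differed by 0.60 (Prtn3) to 1.24 (Ctsg) log2 units, with a median of 0.62. Ctsg showed the largest difference of the 10, 1.24 ± 0.59 (SE), with TG above WT within replicate 1 by 1.02 and within replicate 2 by 1.45. The Ctsg value rests in part on the dim WT replicate 1 signal of 16.6: it was 0.76 with a pseudocount of 64 and 1.61 with a pseudocount of 1, and it was 0.48 without TG replicate 2 and 1.99 without TG replicate 1. Among the later genes, Ltf (0.61), Camp (0.58) and Ngp (0.51) resembled the primary genes in size, whereas S100a8 (0.15), S100a9 (0.11) and Mmp8 (-0.11) were close to 0, and the median of the 6 was 0.33. Over all genes the median was 0.01 and 52.5% were above 0. None of the 10 was called by limma (adjusted p = 1.00 for each), nor were any of all genes (0%). At an unadjusted p under 0.05 there were 0 of the 10 and 44 of all genes (0.393%), and with the replicate block Ctsg was at an unadjusted p of 0.0287 (1.69% of all genes were under 0.05) and an adjusted p of 1.00. TG and WT overlapped in all 10 genes, whereas TG lay wholly above WT in 10.1% of all genes and wholly below in 7.83%. Within replicate 1 TG exceeded WT in 10 of 10 genes, with medians of 0.335 (primary) and 0.244 (later). Within replicate 2 TG exceeded WT in 8 of 10, with medians of 0.966 and 0.446. Leaving out 1 mouse sets a lone mouse against both replicate numbers, so the replicate difference enters the medians that follow. Without TG replicate 2 the medians were -0.16 (primary) and -0.58 (later), and without TG replicate 1 they were 1.47 and 1.22. Without WT replicate 1, the pancreas-bearing array, they were 0.18 and -0.48, and without WT replicate 2 they were 1.18 and 1.10.

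The TG effect at 12 months minus that at 2 months was tested directly, and no granule gene passed. Its median was 0.19 for the primary genes, from -0.56 (Ctsg) to 0.45 (Elane), and 0.55 for the later genes, from 0.31 (Ltf) to 1.05 (Mmp8). The limma adjusted p was 1.00 for each of the 10, with 0% of all genes called, and at an unadjusted p under 0.05 there were 0 of the 10 and 213 of all genes (1.9%). The difference was above 0 in 9 of the 10, all but Ctsg, and in 43.7% of all genes. Within replicate 1 the medians were -0.41 and -0.32, and within replicate 2 they were 0.79 and 1.49. Without TG replicate 2 at 12 months the medians turned to -0.17 and -0.07. Without TG replicate 1 at 2 months they turned to -0.66 and -0.35, and without WT replicate 2 at 2 months to -0.38 and -0.26. Without WT replicate 2 at 12 months the primary median was -0.36 and the later one 0.18.

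The differences between ages had opposite signs in the 2 replicate pairs. In TG mice, 12 months exceeded 2 months within replicate 1 in 10 of 10 genes, by 0.02 (S100a9) to 0.68 (Ltf) log2 units, and was below it within replicate 2 in 10 of 10, with differences of -0.17 (Ltf) to -0.48 (Prtn3). The fitted medians were 0.01 for the primary and 0.08 for the later genes, with 6 of 10 above 0, as were 43.7% of all genes. None of the 10 passed the limma test (adjusted p = 1.00), which 0.00894% of all genes did. In WT mice, 12 months exceeded 2 months within replicate 1 in 10 of 10 genes, by 0.35 (Mmp8) to 1.39 (Ctsg). Within replicate 2 the 12-month WT mouse was lower in 10 of 10, with differences of -0.37 (Ctsg) to -2.34 (Mmp8). In WT 1 of 10, Ctsg, was above 0, as were 51.4% of all genes. The fitted WT medians were -0.18 for the primary and -0.55 for the later genes, with Mmp8 at -0.996 ± 0.68 (SE), S100a9 at -0.74 ± 0.76 and S100a8 at -0.72 ± 0.68. None passed the limma test (adjusted p = 1.00, 0% of all genes called), and at an unadjusted p under 0.05 there were 0 of the 10 in either genotype, and 4.72% of all genes in TG and 1.53% in WT. No granule gene had ages that did not overlap, against 10.3% of all genes higher and 17.4% lower at 12 months in TG, and 12.7% and 10.9% in WT. Without TG replicate 2 at 2 months the TG medians were 0.86 and 1.02, and without TG replicate 1 at 2 months they were -0.76 and -0.79. Without TG replicate 1 at 12 months they were 0.42 and 0.68, and without TG replicate 2 at 12 months -0.40 and -0.48. The sign thus depended on which mouse was left out, in WT as in TG. The WT medians turned to 0.39 and 0.30 without WT replicate 2 at 2 months. They were 0.44 and -0.18 without WT replicate 2 at 12 months, -0.70 and -0.91 without WT replicate 1 at 12 months, and -0.72 and -1.39 without WT replicate 1 at 2 months.

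All 10 genes shared 1 layout over the replicate numbers. Replicate 2 exceeded replicate 1 in all 10 genes in TG at 12 months (median 1.06 log2 units), TG at 2 months (1.61) and WT at 2 months (1.39). In WT at 12 months replicate 2 was below replicate 1 in all 10 (-0.77). This sign pattern held for 10 of 10 granule genes and for 5.51% of all genes. The replicate 2 arrays of those 3 groups were the 3 highest of 8 for 8 of the 10, all but Elane and Ctsg, and for 7.19% of all genes. The lowest array was WT replicate 2 at 12 months for 6 genes (Elane, Mpo, Ngp, Mmp8, S100a8 and S100a9) and WT replicate 1 at 2 months for the other 4. In the 8 genes other than Ctsg and Mmp8 the highest signal was 3.83 times (S100a8) to 6.90 times (Elane) the lowest. The lowest signals of Ctsg (16.6) and Mmp8 (31.2) were under the filter level of 45.3, so no fold is given for them. The log2 range of each exceeded that of at least 98.0% of the genes tested. Fitted over all groups, replicate 2 minus replicate 1 was 0.36 ± 0.43 (SE) for Elane, 0.41 ± 0.39 for Mpo, 0.72 ± 0.33 for Ctsg and 0.85 ± 0.36 for Prtn3. It was 0.81 (Mmp8) to 1.16 (Camp) for the later genes. None passed the limma test (adjusted p = 0.0762 to 0.562), against 26.3% of all genes, 13.6% in the higher direction. At an unadjusted p under 0.05 there were 5 of the 10 and 40.3% of all genes, and 10 of 10 fitted values were above 0, as were 55.1% of all genes. Leaving out either WT mouse at 12 months, all 10 passed in the higher direction (limma, adjusted p = 0.00282 to 0.0198), with 8.68% or 8.53% of all genes. That WT pair is the one that ran the other way in these same genes, so the pass is not separate support. Without either TG mouse at 2 months the difference of Elane was -0.05, and the medians were 0.24 (primary) and 0.70 (later). The Gapdh 3′ to 5′ ratio was higher in replicate 2 than in replicate 1 in all 4 groups (1.21 against 0.843 in TG and 1.74 against 1.25 in WT at 12 months, 1.48 against 1.07 in TG and 1.39 against 1.01 in WT at 2 months), also in WT at 12 months, where the granule genes were lower. The actin ratio ran the other way in all 4 groups (1.10 against 1.20 in TG and 1.31 against 1.48 in WT at 12 months, 1.14 against 1.21 in TG and 1.18 against 1.24 in WT at 2 months). The part of RNA integrity in the result was not tested.

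**Figure D3:**
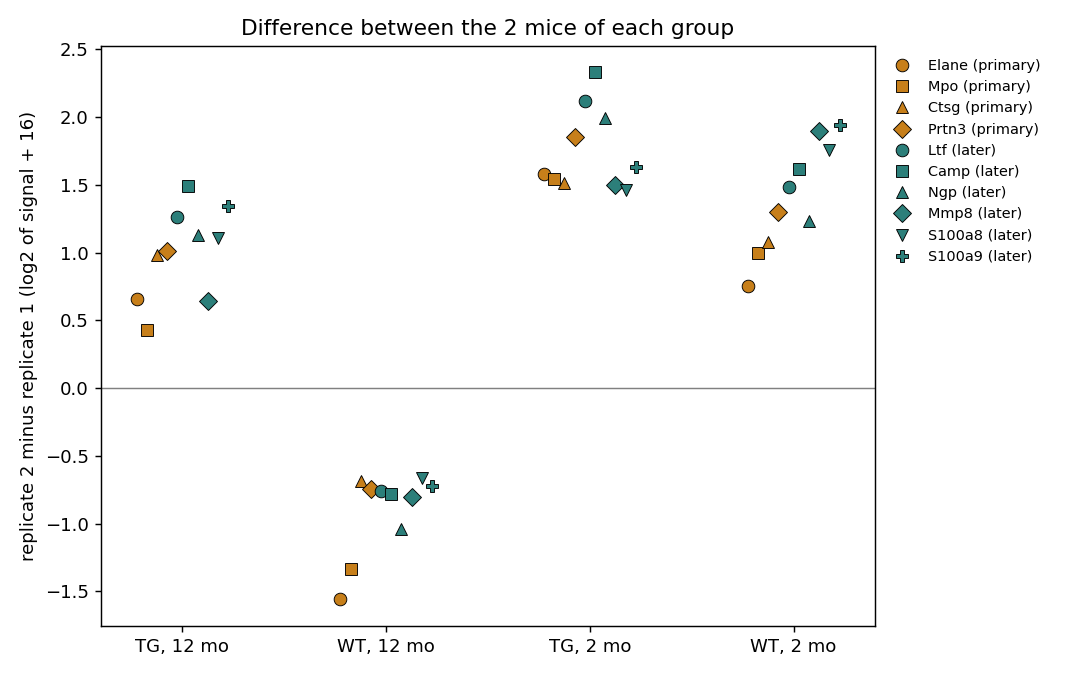
Replicate 2 minus replicate 1 of log2(signal + 16) for the 10 granule genes in each group, orange for primary and green for later genes. All points are above 0 in 3 groups and below 0 in WT at 12 months, and in WT at 2 months Mmp8, S100a8 and S100a9 lie highest, at 1.75 to 1.94.

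The 2 classes parted in a single mouse, WT replicate 2 at 2 months. There the mean of the primary genes, each taken against its own mean over 8 arrays, was 0.14, and that of the later genes was 0.78. The primary mean minus the later mean was -0.64 in that mouse and -0.14 to 0.28 in the other 7. The later class was itself spread out. Replicate 2 over replicate 1 in WT at 2 months was 4.62-fold for Mmp8, 3.39-fold for S100a8 and 3.87-fold for S100a9, 1.76-fold for Elane, 2.08-fold for Mpo, 2.37-fold for Ngp, 2.65-fold for Prtn3, 2.95-fold for Ltf and 3.17-fold for Camp. Camp lay close to S100a8, so these folds form a range and not 2 separate sets. Ctsg is left out of them for its dim replicate 1 value. At 2 months the replicate difference in WT minus that in TG was 0.29 to 0.40 log2 units for Mmp8, S100a8 and S100a9, and -0.43 (Ctsg) to -0.83 (Elane) for the other 7. Over 8 arrays, which hold 4 groups of 2 mice, Mmp8, S100a8 and S100a9 correlated with each other at r = 0.966 to 0.996 and with the primary genes at 0.649 to 0.938. Ltf, Camp and Ngp correlated with the primary genes at 0.892 to 0.993. Over all 45 pairs of the 10 genes r was 0.649 to 0.996, with a median of 0.917. This split rests on 1 mouse and was not tested.

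The genes whose levels ran most like the primary members over 8 arrays were Sh3yl1 (r = 0.982), Ms4a3 (0.970) and Lcn2 (0.961), followed by Rad23b, Ncoa4, Atp7b, Crb1 and Mmadhc (0.936 to 0.949). Ms4a3 marks granulocyte and monocyte progenitors. Those most like the later members were Lcn2 (0.993) and Wfdc21 (0.964), followed by Asap1, Supt16, Mmadhc, Gnpat, Ppp2r5e and Clptm1 (0.946 to 0.961). Lcn2, the siderophore-binding protein of specific granules, had 399.5 and 900.3 in TG replicates 1 and 2 at 12 months, against 429.4 and 197.5 in WT. At 2 months Lcn2 had 252.2 and 1179 in TG mice, against 237.8 and 721.5 in WT. It was among the 8 most alike of both classes, but several of the others, such as Mmadhc with a range of 0.14 log2 units, shared the order of arrays and hardly varied. In all, 23 genes exceeded r = 0.9 with the primary mean and 30 with the later mean.

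Other genes of the neutrophil programme were mixed in direction at 12 months. Some of them, such as Ms4a3, Lcn2 and Wfdc21 above, ran with the members over the arrays, and others did not. Of 11 measured regulators of neutrophil development, 6 were higher and 5 lower in TG than in WT mice at 12 months, with a median of 0.02, and 0 passed the limma test. Gfi1, a repressor needed for neutrophil maturation, had 85.0 and 226.9 in TG replicates 1 and 2, against 81.4 and 58.7 in WT (0.88 ± 0.40 SE, adjusted p = 0.660). At 2 months Gfi1 had 97.3 and 80.7 in TG mice, against 67.0 and 47.6 in WT, so it did not show the replicate pattern there. Cebpd (-0.50 ± 0.29) and Per3 (-0.56 ± 0.36) were the other regulators with the largest test statistics, and the TG replicate 1 signal of Per3 (25.4) was under the filter level of 45.3. Cebpa and Spi1 were measured, and Cebpe was not.

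Among 12 other primary granule and promyelocyte genes, 8 were higher and 4 lower in TG at 12 months, with a median of 0.35. The 3 with the largest test statistics had other layouts over mice than the members. Serpinb1a, an inhibitor of elastase, proteinase 3 and cathepsin G, averaged 520.3 ± 22.4 in TG and 867.4 ± 67.4 in WT mice (SD, n = 2 each), with a log2 difference of -0.72 ± 0.17 (SE, limma adjusted p = 0.586) that was the same sign within replicate 1 (-0.75) and replicate 2 (-0.68). Nkg7 (1.25 ± 0.35) and Cst7 (1.06 ± 0.41) are also genes of cytotoxic lymphocytes, and both differed more within replicate 1 (2.01 and 1.93) than within replicate 2 (0.50 and 0.18). Of 16 other specific and gelatinase granule genes, 6 were higher and 10 lower, with a median of -0.03 that was -0.27 within replicate 1 and 0.32 within replicate 2. Itgb2l, an integrin subunit of specific granules, had 58.4 and 93.5 in TG replicates 1 and 2, against 13.3 and 33.7 in WT (limma adjusted p = 0.586). Both WT values lie under the filter level of 45.3, so no size of the difference is given. Slpi (-0.73 ± 0.41) and Adam8 (-0.52 ± 0.28) were lower on average. No gene of these lists passed the test.

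Mature neutrophil surface genes had in part another layout over mice. Of 8 measured, 4 were higher (Il1r2, Fpr2, Clec4e and Selplg) and 4 lower in TG at 12 months. Cxcr2, Trem1 and Clec4d among the lower and Clec4e among the higher had 12-month signals under the filter level of 45.3. No median is therefore given. Cxcr2, the chemokine receptor of mature neutrophils, had 10.9 and 25.6 in TG replicates 1 and 2 at 12 months, against 33.5 and 44.7 in WT. All 4 of these signals lie under the filter level of 45.3, which the gene passed through its 2-month values, so no difference is given. At 2 months Cxcr2 had 82.5 and 79.0 in TG mice, against 89.1 and 159.6 in WT. Trem1 (-0.89 ± 0.51 SE) and Clec4d (-0.79 ± 0.47) differed on average at 12 months mainly through TG replicate 1, whose signals of 14.9 and 17.6 were under that level. TG minus WT was -1.81 for Trem1 and -1.39 for Clec4d within replicate 1, and 0.02 and -0.18 within replicate 2. Csf3r, the G-CSF receptor, had 113.7 and 180.0 in TG mice at 12 months, against 204.1 and 297.1 in WT, and 199.9 and 519.8 in TG mice at 2 months, against 166.3 and 742.2 in WT. WT replicate 2 at 12 months, the lowest array for most granule genes, was thus higher than replicate 1 for Csf3r. It was higher in 5 of the 8 surface genes. In Il1r2 (-0.12), Clec4d (-0.28) and Trem1 (-0.06) it was lower, as in the granule genes. The mean of the 8 surface genes on that array was -0.03 against their own means, where the primary and later granule genes were at -0.97 and -0.96. On WT replicate 2 at 2 months the surface genes were at 0.91, their highest, where the later granule genes were at 0.78 and the primary ones at 0.14. In the replicate test 3 of the 8 surface genes and 6 of the 16 other specific granule genes passed in the higher direction, against 0 of the 10 members and 13.6% of all genes.

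**Figure D4:**
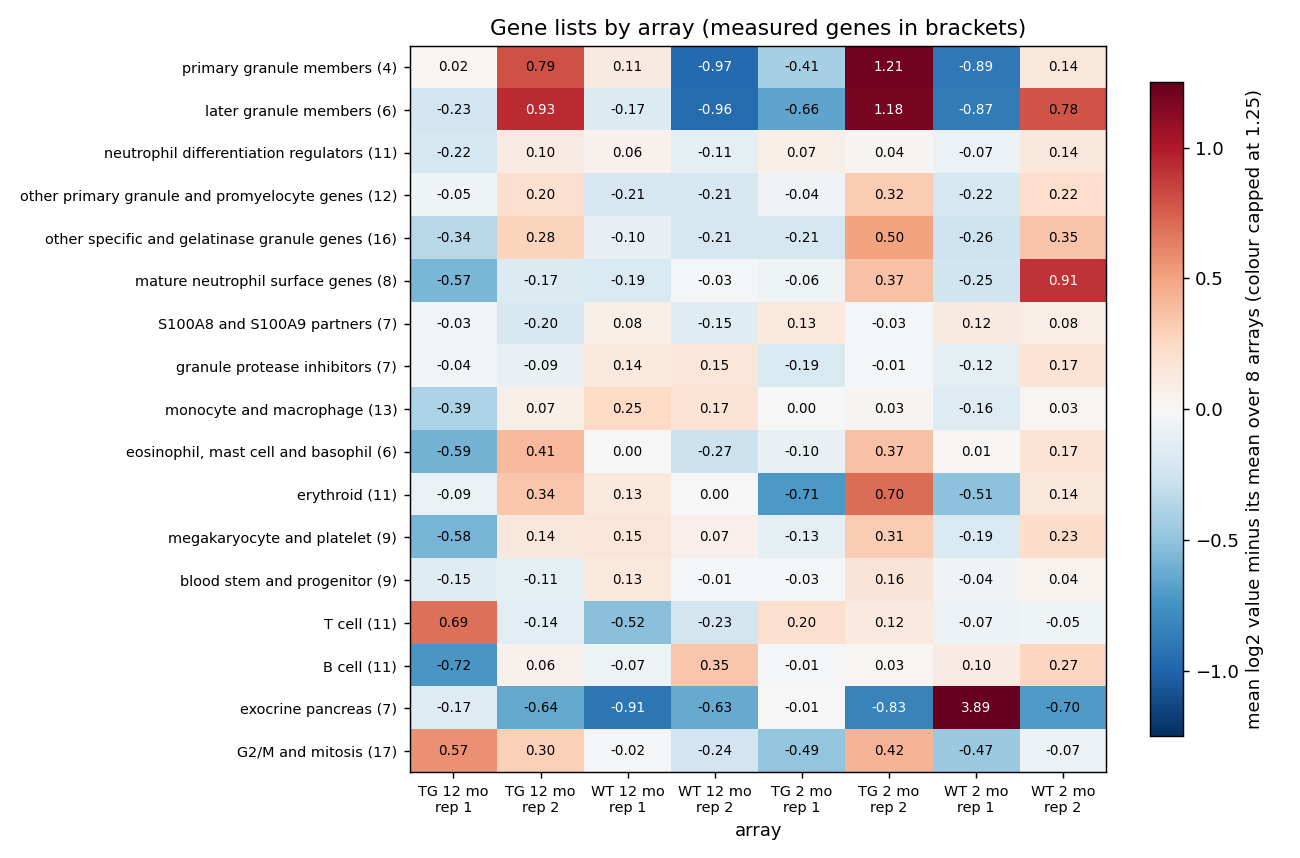
Mean log2 value of each gene list on each of 8 arrays, each gene taken against its mean over arrays, with red above and blue below that mean and the number of measured genes in brackets. The 2 granule rows run from -0.97 to 1.21, and the mature surface row peaks at 0.91 on WT replicate 2 at 2 months.

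Of 7 measured genes around S100A8 and S100A9, such as their receptors, 3 were higher and 4 lower in TG at 12 months, with a median of -0.04; the largest test statistics were those of S100a4 (-0.39 ± 0.18 SE), S100a6 (-0.33 ± 0.19) and Ager (0.45 ± 0.29). Of 7 measured inhibitors of granule proteases, 3 were higher and 4 lower, with a median of -0.02, led by Serpinb1a and Slpi as above and by Timp2 (-0.39 ± 0.20). None passed the limma test.

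Markers of other blood cells ran in part with the granule genes. Summed over 6 measured eosinophil, mast cell and basophil genes, the signal was 499.2 and 1237 in TG replicates 1 and 2 at 12 months, against 795.4 and 572.0 in WT. At 2 months it was 686.7 and 1341 in TG mice, against 722.0 and 835.4 in WT. The eosinophil granule genes Epx (eosinophil peroxidase) and Prg2 (major basic protein) carried most of this. Epx correlated with the primary mean at r = 0.910 and Prg2 at 0.897 over 8 arrays. The rest of the 6 did not follow it closely: r was 0.246 for Prg3, 0.164 for Il5ra, -0.173 for Cpa3 and -0.368 for Ccr3. Epx had 88.96 and 245.1 in TG mice at 12 months, against 103.3 and 77.2 in WT, and 109.9 and 310.0 in TG mice at 2 months, against 85.5 and 147.6 in WT. The 11 measured erythroid genes were highest on TG replicate 2 at 2 months (0.70 against their mean) and lowest on TG replicate 1 at 2 months (-0.71), and on WT replicate 2 at 12 months they were at 0.00. The 13 measured monocyte and macrophage genes had a median TG minus WT difference of -0.38 at 12 months, with 3 higher and 10 lower, and ran from -0.39 to 0.25 over arrays. The part of any of these cell types in the granule values was not tested.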

How the data were processed

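RNA of spleen cells from 8 mice was measured, 1 array per mouse and 2 mice in each of 4 groups given by the labels. The authors deposited 1 intensity (signal) per probe set on a linear scale, made with GCOS 1.4 and MAS5 per the submitters' processing notes, and the values show a trimmed mean of 150 on every array and medians of 44.9 to 49.5. Of 45101 probe sets, 64 were controls, 34945 had 1 symbol in the platform annotation, 932 had several and 9160 had none. Values were taken as log2(signal + 16), and probe sets whose mean was under the median of all (log2 5.94, signal 45.3 on that scale) were dropped. The probe set with the highest mean stood for each of 11189 genes, and the platform annotation can be old. Under R 4.3.3, limma 3.58.1 fitted 4 group means without a block to all arrays, with moderated variances that follow signal level and 4 residual degrees of freedom. Tests were 2-sided. Benjamini-Hochberg adjustment ran over every gene kept, and 0.05 was the threshold. The fit was also run on simulated data with independent noise and no replicate effect. These arrays do show a replicate effect, so that run does not cover it. Array data hold no read depth, so the number of mice limits the precision.

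Deviations of same-numbered mice from their group means correlated across genes at r = 0.464 to 0.654 in all 6 pairs of groups, so the replicate numbers from the labels were taken to pair the samples. The replicate number was therefore also fitted as a block (3 residual degrees of freedom), and it was tested as an effect of its own. The members, the gene lists and the tests were chosen with earlier results of these data known, and the motif letters were chosen after the promoter sequences had been seen. All 10 members are named in every comparison. From each other list the text names the 3 measured genes with the largest absolute moderated t for TG minus WT at 12 months, and as most alike the 8 genes with the highest Pearson r to the mean of either class. The Csf3r and Epx values by mouse, and the Prg2 correlation, were added after their values were seen. Alternatives covered the pseudocount, the filter, the probe set rule, the scaling, the variance model, the block and leaving out each array. Effects that share arrays, such as those of genotype and age, are given side by side only.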

Additional observations from a re-analysis of the deposited data

How the results depend on the processing

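With 2 mice a group, many directions here changed when 1 array was left out, and arrays give no read depth. Such a setting also leaves a lone mouse against both replicate numbers, so the replicate difference enters it. Outside the settings that leave out an array, all 578 member values kept their direction and their side of the threshold, but sizes of dim members moved with the pseudocount (at 64 in place of 16, TG minus WT was 0.59 against 0.94 for Mmp8 and 0.44 against 0.67 for Ctsg at 12 months, and 0.76 against 1.24 for Ctsg at 2 months). TG minus WT at 12 months stayed above 0 for all 10 granule genes, also with each array left out in turn (S100a9 0.06 to 1.402). Each of these settings kept at least 1 replicate 2 mouse at 12 months, so they cannot remove the replicate 2 difference. Within replicate 1 alone TG exceeded WT in 2 of 10 genes. The replicate block changed no call on a granule gene. The number of genes called with the block was 5 for TG minus WT at 12 months and 21 for 12 minus 2 months within TG, against 0 and 1 without it. With no moderation of the variances it was 1 for the difference of effects, 0 within TG and 628 for replicate 2 minus replicate 1 (2940 with moderation). A pseudocount of 1 gave 0 within TG. The stricter filter drops the dimmest members, and the later median at 2 months was then 0.51. For the other settings the cause was not tested. Leaving out 1 array at a time, counts of called genes ran from 0 to 7 for TG minus WT at 12 months, 0 to 2 at 2 months, 0 to 4 for age within TG, 0 to 4 within WT and 1191 to 2702 for the replicate number (1191 and 1198 without a WT mouse at 2 months, 1750 and 1755 without a TG mouse at 2 months, 1917 without either WT mouse at 12 months). The 2-month medians ran from -0.16 to 1.47 (primary) and -0.58 to 1.22 (later), and the age medians within TG from -0.76 to 0.86 and -0.79 to 1.02. At 2 months TG minus WT ran from -0.17 to 1.41 for Elane, -0.15 to 1.396 for Mpo, 0.48 to 1.99 for Ctsg, -0.33 to 1.52 for Prtn3, -0.45 to 1.67 for Ltf, -0.59 to 1.74 for Camp, -0.49 to 1.503 for Ngp, -1.06 to 0.84 for Mmp8, -0.73 to 1.03 for S100a8 and -0.86 to 1.08 for S100a9. The difference of effects ran from -0.34 to 1.24 for Elane, -0.50 to 1.04 for Mpo, -1.32 to 0.19 for Ctsg, -0.81 to 1.04 for Prtn3, -0.74 to 1.37 for Ltf, -0.68 to 1.65 for Camp, -0.51 to 1.49 for Ngp, -0.20 to 1.56 for S100a8 and -0.35 to 1.59 for S100a9. Age within TG ran from -0.71 to 0.87 for Elane, -0.69 to 0.85 for Mpo, -0.81 to 0.70 for Ctsg, -0.98 to 0.87 for Prtn3, -0.81 to 1.31 for Ltf, -1.05 to 1.28 for Camp, -0.76 to 1.23 for Ngp, -0.69 to 0.80 for Mmp8, -0.77 to 0.70 for S100a8 and -0.94 to 0.69 for S100a9. Age within WT ran from -1.15 to 0.41 for Elane, -0.85 to 0.48 for Mpo, -0.028 to 1.05 for Ctsg, -0.82 to 0.47 for Prtn3, -0.80 to 0.68 for Ltf, -1.18 to 0.43 for Camp, -0.87 to 0.36 for Ngp, -1.59 to 0.16 for S100a8 and -1.71 to 0.23 for S100a9. Replicate 2 minus replicate 1 ran from -0.049 to 0.996 for Elane. Of the member values with an array left out, 79 of them turned sign, 20 passed the test (all for the replicate number without a WT mouse at 12 months) and 381 did neither. In these settings the lone mouse of a group is assumed to vary like the other groups.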

Other observations

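Lymphocyte and proliferation markers on the same arrays had other layouts than the granule genes. The 11 measured T cell genes had a median TG minus WT difference of 0.70 at 12 months, with 10 higher and 1 lower, and it was 1.14 within replicate 1 and 0.09 within replicate 2. Cd8b1 (1.30 ± 0.37 SE), Cd2 (0.70 ± 0.22) and Zap70 (0.65 ± 0.21) had the largest test statistics. Of 11 measured B cell genes 2 were higher and 9 lower, with a median of -0.36. The complement receptor Cr2 (-1.56 ± 0.20) and the IgE receptor Fcer2a (-1.48 ± 0.33) passed the limma test with the replicate block (adjusted p = 0.0255 each) but not without it (0.232 and 0.561), and Cd72 differed by -0.45 ± 0.19. All 17 measured genes of mitosis were higher in TG at 12 months, with a median of 0.60 that was 0.60 within replicate 1 and 0.54 within replicate 2. Kif20a (0.92 ± 0.29), Bub1b (0.81 ± 0.30) and Nusap1 (0.77 ± 0.31) led them, and none was called.

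Among myeloid and other markers at 12 months, the macrophage complement receptor Vsig4 (1.65 ± 0.31 SE) was higher and Cd14 (-1.38 ± 0.34) and Vcam1 (-0.71 ± 0.20) lower in TG than in WT mice on average, each with the same sign within both replicate numbers. Ccr3 differed by -0.71 ± 0.41, Epx by 0.65 ± 0.54 and Prg2 by 0.43 ± 0.56, with 4 of the 6 eosinophil, mast cell and basophil genes higher. Of 11 measured erythroid genes 7 were higher, led by Car1 (0.36 ± 0.30), Tfrc (0.24 ± 0.28) and Epb42 (0.20 ± 0.38), and of 9 megakaryocyte and platelet genes 8 were lower, led by Vwf (-0.68 ± 0.30), Itgb3 (-0.54 ± 0.30) and Gp9 (-0.39 ± 0.25). Of 9 blood stem and progenitor genes 6 were lower, led by Flt3 (-0.49 ± 0.18), Meis1 (-0.52 ± 0.22) and Kit (-0.40 ± 0.18). Of 7 exocrine pancreas genes 5 were higher, with Prss2 at 0.97 ± 1.22, Cela3b at 0.50 ± 0.82 and Cela1 at -0.43 ± 0.88. The SEs share the spread of all 4 groups, and so include the pancreas-bearing WT replicate 1 array at 2 months. Prss2 in WT replicate 2 at 12 months (44.7) was under the filter level of 45.3. No gene of the lists in this paragraph passed the limma test (adjusted p of the 3 named per list 0.551 to 0.948).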
